A study of Mus musculus with 4 samples.

Results

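The 42 genes described here encode the machinery of the endoplasmic reticulum (ER) that brings secretory proteins into the lumen, folds them, removes those that fail and senses the load. They were taken by name, out of 52535 gene models counted in each library. All 42 had a row, and all 42 passed the filter on low counts that left 13990 genes for testing. Bulk RNA sequencing was done on pancreatic duct cells of C57BL/6 mice. The control group held 2 libraries labelled wild type (WT 1 and WT 2, the wild-type pair). The other group held 2 libraries labelled Lats1/2 KO (KO 1 and KO 2, the knockout-labelled pair), with the genotype Lats1fl/fl; Lats2fl/fl; Sox9-CreER. Lats1 and Lats2 are kinases of the Hippo pathway, which hold back the co-activators YAP and TAZ, and CreER is a recombinase that tamoxifen switches on, here under control of Sox9, a gene of duct cells. Deletion is therefore limited to cells that express Sox9 and were reached by Cre. The control label names neither floxed alleles nor Cre. The sources used here do not give ages, tamoxifen dosing, the time after it or the way the duct cells were isolated. Nor do they give whether libraries of 1 group came from separate mice, and the spread behind the p-values may therefore be technical.

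Library totals ran from 3566387 to 5925601 counts, and 3 counts in a library corresponded to 0.486 to 0.824 CPM. CPM (counts scaled to library size) are given after TMM scaling, which corrects library sizes for a few very abundant genes. Within a group, values are given in the order replicate 1, replicate 2. Whole-model counts of the targeted genes did not check the deletion. Lats1 stood at 58.2 ± 10.5 and 74.6 ± 6.45 CPM in the wild-type and knockout-labelled groups, and Lats2 at 108 ± 8.53 and 142 ± 29.7 CPM (SD, n = 2), with edgeR adjusted p = 0.172 and 0.127. Without KO 2, Lats2 was higher (log2 change 0.63, edgeR adjusted p = 0.036). Counts over a whole gene include transcripts that lost only some exons.

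Markers of the duct label and of other pancreatic cells moved between the groups, and the ER genes are read beside them. Of 16 duct markers 12 were higher in the libraries labelled knockout, and their summed level was 2475 and 2998 CPM in the wild-type pair against 16325 and 16863 CPM in the knockout-labelled pair. Acinar markers, the digestive enzymes of the cells with the most developed ER of the pancreas, summed to 77117 and 137203 CPM in the wild-type pair and to 365 and 7137 CPM in the knockout-labelled pair. Single acinar genes mostly missed the threshold: of 30 tested, 5 were lower, 1 was higher and 24 did not pass. Plasma cell and B cell markers, of which 12 of 13 tested were lower, summed to 4992, 8077, 1262 and 798 CPM in the same order. In bulk samples fewer cells of a type and less RNA per cell cannot be told apart.

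As background, most proteins bound for secretion enter the ER through the SEC61 channel while they are made, lose their signal peptide to signal peptidase, and are folded by the Hsp70 chaperone BiP, by lectin chaperones and by disulphide isomerases. Proteins that do not fold are drawn back to the cytosol and degraded, a route called ER-associated degradation. The sensors ATF6, IRE1 and PERK start the unfolded protein response when folding falls behind, and that response raises the transcription of many of these same genes. Acinar and plasma cells, which secrete in bulk, hold far more rough ER than duct cells, whose main product is a bicarbonate fluid.

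The ER stress response element (ERSE), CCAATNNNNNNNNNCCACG, is the promoter sequence through which ATF6 acts together with the factor NF-Y, and ERSE-II, ATTGGNCCACG, is a shorter form. Both strands of the RefSeq promoter windows (GRCm38.p6, 250 bases before to 50 after the start site) were searched. Windows were matched by symbol for 35 of the 42 genes, and not for Hyou1, Manf, Sec61a1, Ssr2, Sec11c, Derl1 or Atf6. ERSE was found in 10 of the 35 (28.6%), against 37 of all 27025 genes with a window (0.137%), these 10 included. ERSE-II was found in 2 of the 35 (5.71%), Herpud1 and Dnajb11, against 0.0444% of all genes with a window. Stretches of genes of both outcomes are shown for comparison, and counts with and without the element are given with the results. The stretches of Hspa5, Calr and Dnajc3, which did not pass the test, can be set beside those of Creld2, Ero1lb and Derl3, which fell, and of Herpud1, which fell too. Each is printed 5′ to 3′ on the strand of its gene, with the element in capitals. An element that begins with CGTGG lies on the opposite strand.
Hspa5 (chr2:34772010-34772058, + strand): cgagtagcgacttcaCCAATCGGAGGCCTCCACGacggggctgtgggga
Calr (chr8:84847060-84847108, - strand): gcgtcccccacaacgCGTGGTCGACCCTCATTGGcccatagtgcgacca
Dnajc3 (chr14:118937812-118937860, + strand): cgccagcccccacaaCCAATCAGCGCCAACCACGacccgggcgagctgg
Creld2 (chr15:88819505-88819553, + strand): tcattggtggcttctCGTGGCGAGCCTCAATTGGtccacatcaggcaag
Ero1lb (chr13:12565667-12565715, + strand): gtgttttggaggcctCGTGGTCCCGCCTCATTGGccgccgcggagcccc
Derl3 (chr10:75893227-75893275, + strand): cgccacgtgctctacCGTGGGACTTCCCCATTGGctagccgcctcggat
Herpud1 (chr8:94386362-94386402, + strand): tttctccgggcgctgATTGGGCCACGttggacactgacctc

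The 42 genes split between rises and falls, and the most abundant chaperones were not among those that passed. At an edgeR adjusted p under 0.05, 7 genes (16.7%) rose and 10 (23.8%) fell in the libraries labelled knockout, while 25 did not pass. Among all 13990 genes tested, 22.0% rose and 20.2% fell, so that 42.2% changed in either direction, against 17 of the 42 (40.5%). The share of ER genes that changed was thus near the background. Those that changed moved by less: their median fold was 1.78, against 2.73 for all genes that changed, and 7 of 17 (41.2%) moved over 2-fold, against 70.0%. The median log2 change of the 42 was 0.06, and that of all genes tested was -0.01. These genes were also abundant, with a median level of 95.0 CPM against 22.6 CPM for all genes tested. Abundant genes can pass at smaller folds, and the folds of changed genes were not compared at matched levels. Summed over the 42, the level was 7693 and 7696 CPM in the wild-type libraries and 8747 and 8751 CPM in the libraries labelled knockout.

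**Figure D1:**
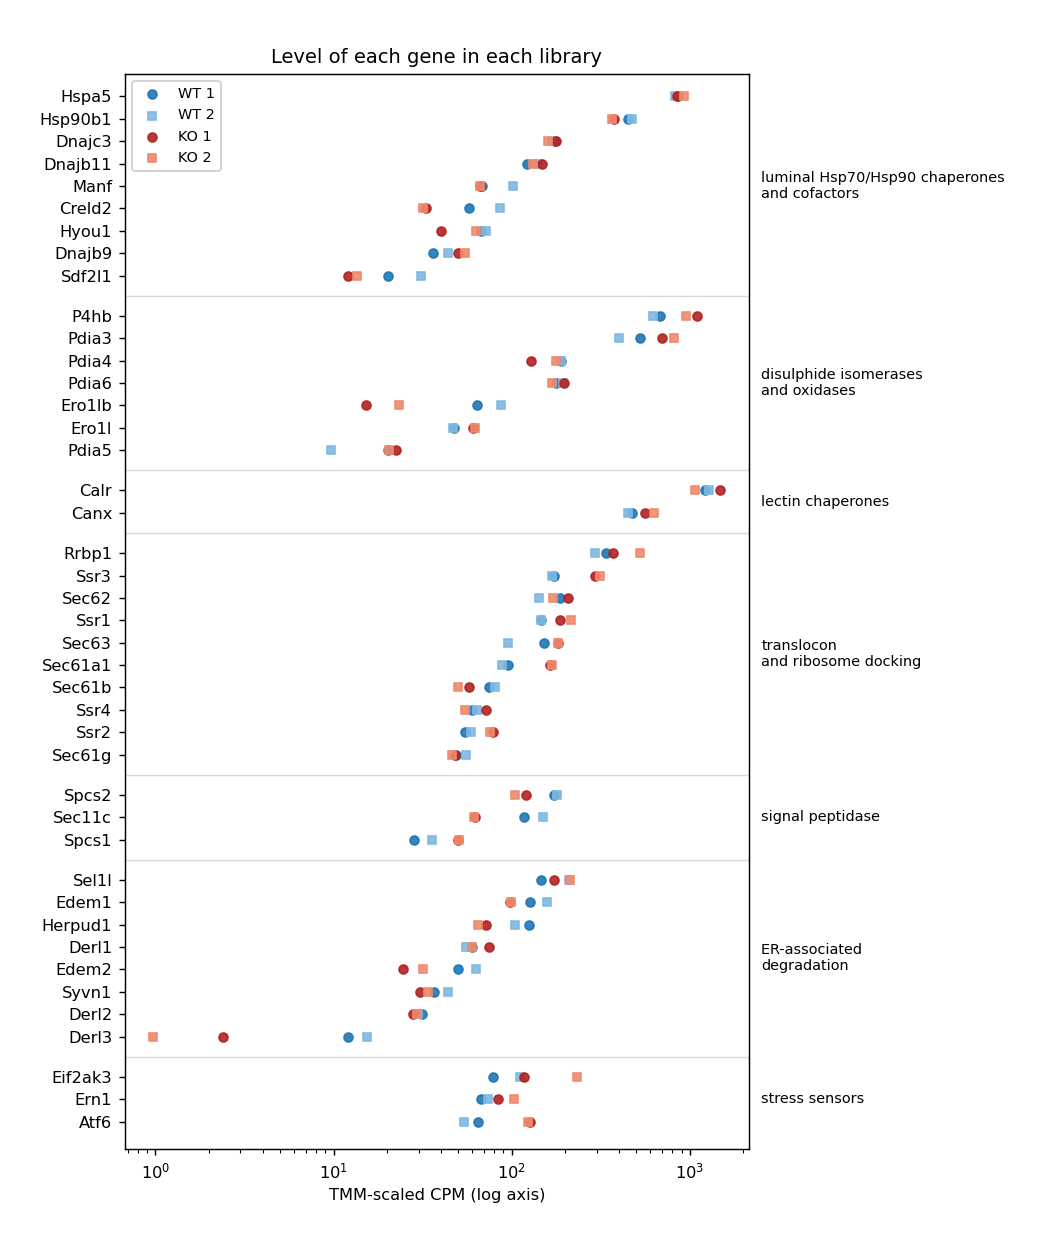
Level of each of the 42 genes in each library, as TMM-scaled CPM on a log axis, grouped by role and ordered by mean level within a role. Blue symbols are the 2 wild-type libraries and red symbols the 2 libraries labelled knockout. Hspa5 lies between 824 and 933 CPM in all 4, while the symbols of Ero1lb and Derl3 stand well apart.

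The split depended on scaling. The median log2 change over all genes, -0.01 with TMM, was -0.20 with upper quartile scaling, and then 3 of the 42 rose (Sec61a1, Ssr3 and Atf6) and 11 fell. The share of rises among the changed genes went from 41.2% to 21.4% for the 42, and from 52.1% to 39.4% for all genes. Under all 10 alternative analyses 7 genes kept their call. Atf6, Sec61a1 and Ssr3 rose, and Creld2, Ero1lb, Sec11c and Derl3 fell. The other 10 calls were lost in at least 1 of them. Directions below are relative to TMM scaling.

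Among the 9 luminal chaperones of the Hsp70 and Hsp90 families and their cofactors, 2 (22.2%) fell and 0 rose. Of all genes tested 20.2% fell and 22.0% rose. Hspa5 encodes BiP, the main ER chaperone and the usual readout of the unfolded protein response. It stood at 860 and 824 CPM in the wild-type pair and at 847 and 933 CPM in the knockout-labelled pair. The groups overlapped, and the log2 change was 0.08 ± 0.17 SE (edgeR adjusted p = 0.744). Hsp90b1, the ER form of Hsp90, stood at 450, 472, 376 and 368 CPM in that order. Both wild-type values were the higher ones, but the log2 change of -0.31 ± 0.15 SE did not pass (edgeR adjusted p = 0.14). It passed under upper quartile scaling (-0.51, edgeR adjusted p = 0.032, of a range of 0.032 to 0.476 over the 10 alternatives). Its gene model overlaps Gm15344 on the same strand. The J-domain cofactors of BiP, Dnajb9, Dnajb11 and Dnajc3, had log2 changes of 0.40 ± 0.20, 0.08 ± 0.17 and -0.02 ± 0.15 SE, and none passed (edgeR adjusted p = 0.141, 0.719 and 0.934).

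Creld2 and Sdf2l1, both small luminal proteins induced by ER stress, were the chaperone cofactors that fell. Creld2 (mm10, chromosome 15, 88819646 to 88826681) stood at 57.7 and 85.9 CPM in the wild-type libraries and at 33.2 and 31.7 CPM in the libraries labelled knockout. The groups did not overlap, and the fall was 2.21-fold (log2 change -1.15 ± 0.23 SE, edgeR adjusted p = 0.0044). It passed in all 10 alternatives. Sdf2l1, part of a complex with BiP, stood at 20.3 and 31.0 CPM against 12.1 and 13.6 CPM. Its log2 change was -1.0 ± 0.29 SE (edgeR adjusted p = 0.0219), and 3 of the 4 analyses that left out a library lost the call. Without WT 2, KO 1 and KO 2 the log2 change was -0.66, -0.91 and -1.06, with edgeR adjusted p = 0.193, 0.105 and 0.0717 (range over the alternatives 0.00424 to 0.193). Manf, a secreted ER stress protein, and Hyou1, the nucleotide exchange factor of BiP, had log2 changes of -0.36 ± 0.21 and -0.43 ± 0.23 SE. Neither passed (edgeR adjusted p = 0.21 and 0.175). For Hyou1 the 2 libraries labelled knockout differed, at 40.0 CPM in KO 1 and 63.1 CPM in KO 2, against 67.3 and 71.5 CPM in the wild-type pair. Without KO 2 it was lower by a log2 change of -0.76 (edgeR adjusted p = 0.0359, of a range of 0.0359 to 0.653).

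**Figure D2:**
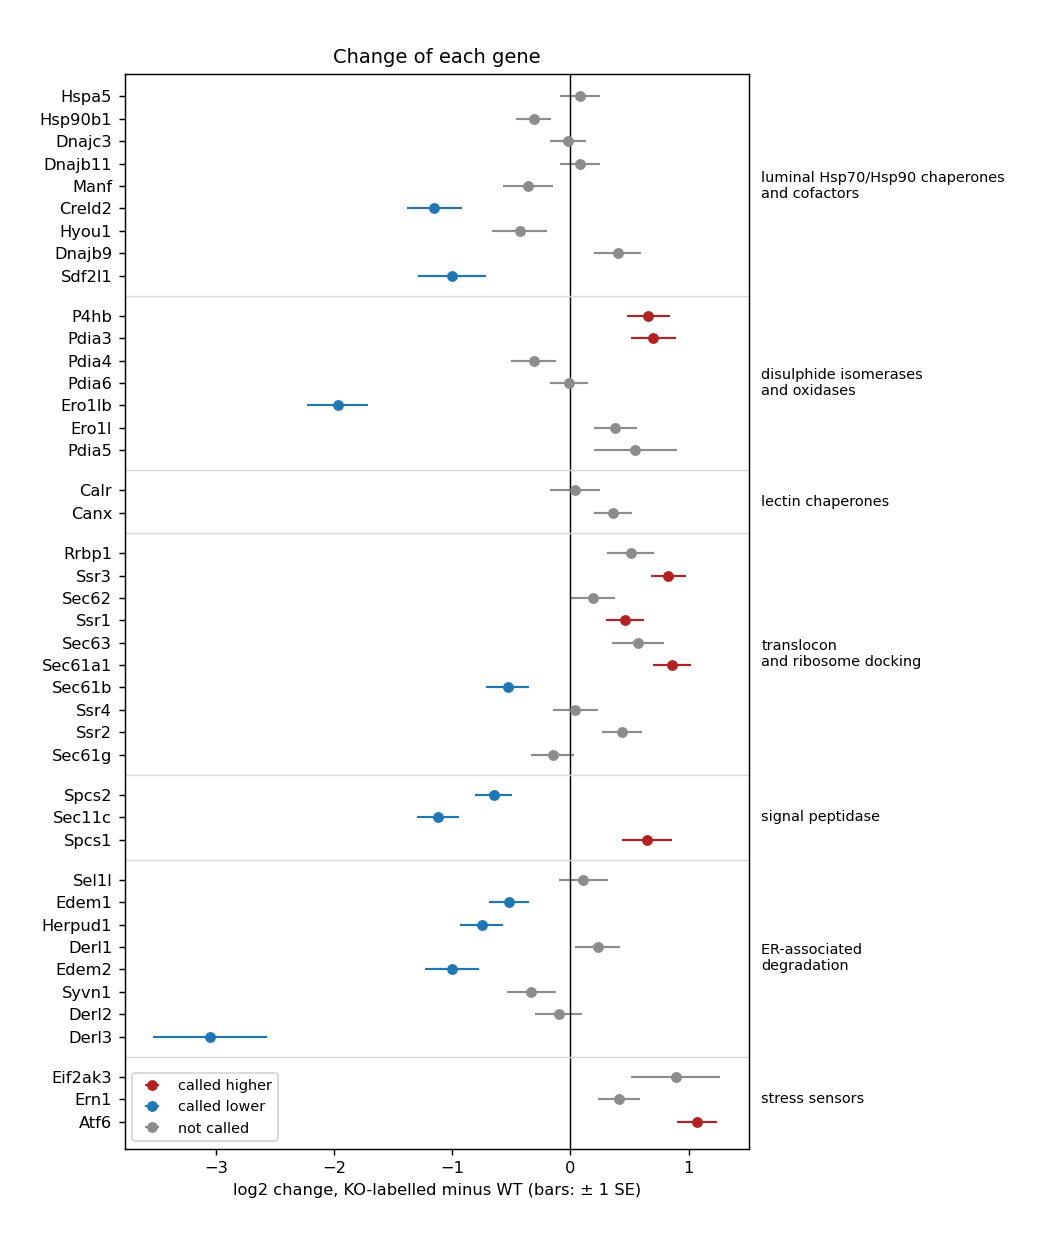
Log2 change of each of the 42 genes, libraries labelled knockout minus wild type, with bars of 1 SE from the edgeR fit. Red marks the 7 genes that rose, blue the 10 that fell and grey the 25 that did not pass; 4 of the 8 degradation genes are blue, and the 2 largest falls are Derl3 at -3.05 and Ero1lb at -1.97.

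Of 7 disulphide isomerases and oxidases, 2 (28.6%) rose and 1 (14.3%) fell, beside 22.0% and 20.2% of all genes tested. These enzymes form and shuffle disulphide bonds, and the ERO1 oxidases recharge the isomerases. P4hb, the classical protein disulphide isomerase and also a subunit of the collagen prolyl hydroxylase, stood at 680 and 618 CPM in wild type and at 1097 and 948 CPM in the libraries labelled knockout. Pdia3, the isomerase that works with the lectin chaperones, stood at 529 and 403 CPM against 700 and 814 CPM. In both genes every knockout-labelled value lay above every wild-type value. The log2 changes were 0.66 ± 0.18 SE for P4hb and 0.70 ± 0.19 SE for Pdia3 (edgeR adjusted p = 0.0191 and 0.0199). P4hb lost its call without WT 1 (0.74, edgeR adjusted p = 0.131), without WT 2 (0.59, 0.213) and under upper quartile scaling (0.46, 0.0799). Pdia3 lost its call without WT 2 (0.52, edgeR adjusted p = 0.246), without KO 2 (0.62, 0.0573) and under upper quartile scaling (0.50, 0.0696). The lowest adjusted p over the alternatives was 0.000684 for P4hb and 0.000194 for Pdia3, and the highest was 0.213 and 0.246. Summed fibroblast and stellate cell markers, cells that make collagen, were at 4621 and 4103 CPM in the wild-type pair and at 17515 and 11689 CPM in the knockout-labelled pair. Their part in the level of P4hb was not tested.

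Ero1lb, the ERO1 oxidase typical of cells with heavy secretion such as islet and acinar cells, had the second largest fall of the 42. It lies on chromosome 13 (mm10, 12565874 to 12611396). Levels were 64.3 and 87.4 CPM in the wild-type pair and 15.3 and 23.3 CPM in the knockout-labelled pair, which did not overlap. The fall was 3.91-fold (log2 change -1.97 ± 0.26 SE, edgeR adjusted p = 0.000602), and it passed in all 10 alternatives. Its widely expressed paralog Ero1l stood at 47.3, 46.7, 60.4 and 62.3 CPM in the 4 libraries (log2 change 0.38 ± 0.18 SE, edgeR adjusted p = 0.111). Per kilobase of exon, Ero1lb was at 1.08 and 1.49 times the level of Ero1l in the wild-type pair, and at 0.201 and 0.297 times that level in the knockout-labelled pair. Islet markers summed to 1217 and 2254 CPM in the wild-type pair and to 303 and 189 CPM in the knockout-labelled pair, and the acinar sums are given above. Whether RNA of those cells had a part in Ero1lb was not tested. The isomerases Pdia4, Pdia5 and Pdia6 did not pass, with log2 changes of -0.31, 0.55 and -0.01 (edgeR adjusted p = 0.219, 0.237 and 0.951). WT 2 held the lowest level of Pdia5, 9.66 CPM against 20.1 CPM in WT 1, 22.5 CPM in KO 1 and 20.6 CPM in KO 2. Without WT 1 Pdia5 was higher by 1.17 (edgeR adjusted p = 0.0325, of a range of 0.0325 to 0.838).

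The lectin chaperones, which hold glycoproteins by their trimmed sugar chains, did not pass. Calr, soluble calreticulin, had the highest level of all 42 genes. It stood at 1211 and 1281 CPM in the wild-type pair and at 1487 and 1075 CPM in the knockout-labelled pair, so that the libraries labelled knockout lay on both sides of the wild-type values. Its log2 change was 0.04 ± 0.21 SE (edgeR adjusted p = 0.897), and its sign was negative under upper quartile scaling. Canx, the membrane-bound calnexin, stood at 474, 450, 562 and 628 CPM in the 4 libraries (log2 change 0.36 ± 0.16 SE, edgeR adjusted p = 0.104).

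Of 10 genes of the translocon and of ribosome docking, 3 rose and 1 fell, beside 22.0% and 20.2% of all genes tested. With DESeq2 2 rose and 0 fell, and with no filter 6 rose and 0 fell. Sec61a1 (mm10, chromosome 6, 88503579 to 88518905) encodes the pore subunit of the SEC61 channel. Its level was 94.8 and 88.8 CPM in wild type and 165 and 168 CPM in the libraries labelled knockout. Replicates lay close together, and the rise was 1.82-fold (log2 change 0.86 ± 0.16 SE, edgeR adjusted p = 0.00279). Ssr3 (chromosome 3, 65379655 to 65392623), a subunit of the TRAP complex beside the channel, rose 1.77-fold, from 172 and 169 CPM to 292 and 312 CPM (0.83 ± 0.15 SE, edgeR adjusted p = 0.0031). Both passed in all 10 alternatives.

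The other subunits of the same complexes gave log2 changes of both signs. Sec61b, a small subunit of the channel, stood at 74.5 and 80.5 CPM in wild type and at 57.8 and 49.7 CPM in the libraries labelled knockout, a log2 change of -0.53 ± 0.18 SE (edgeR adjusted p = 0.0411). This call was lost without WT 1, WT 2, KO 1 and KO 2 (-0.57, -0.47, -0.64 and -0.39, edgeR adjusted p = 0.0951, 0.179, 0.0571 and 0.194). It was also lost with DESeq2 and with no filter, and adjusted p ranged from 0.0117 to 0.194. Sec61g, the remaining channel subunit, stood at 48.9, 55.3, 48.1 and 46.0 CPM (edgeR adjusted p = 0.548). Per kilobase of exon the level of Sec61b was 4.16 and 4.80 times that of Sec61a1 in the wild-type pair, and 1.85 and 1.57 times that in the knockout-labelled pair. In the TRAP complex, Ssr1 stood at 146, 147, 187 and 216 CPM and rose (log2 change 0.46 ± 0.16 SE, edgeR adjusted p = 0.0459). It lost that call without WT 1, WT 2 or KO 2 (0.47, 0.47 and 0.38, edgeR adjusted p = 0.165, 0.175 and 0.123), with DESeq2 and under both other scalings of the whole library, RLE and upper quartile (range 0.0136 to 0.217). Ssr2 and Ssr4, the other TRAP subunits, had log2 changes of 0.44 ± 0.17 and 0.04 ± 0.19 SE (edgeR adjusted p = 0.0685 and 0.901).

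Sec62 and Sec63 encode the partners of the channel for proteins that enter after synthesis, and Rrbp1 a ribosome-binding protein of the rough ER. Their log2 changes were 0.19 ± 0.19, 0.57 ± 0.22 and 0.51 ± 0.20 SE, and none passed (edgeR adjusted p = 0.452, 0.0657 and 0.0736). In Sec63 it was WT 2 that stood low, at 95.7 CPM against 151 CPM in WT 1 and 183 and 182 CPM in the knockout-labelled pair. Without WT 1, Sec63 passed at 0.95 (edgeR adjusted p = 0.012, of a range of 0.00245 to 0.396). In Rrbp1 it was KO 2 that stood high, at 529 CPM against 370 CPM in KO 1 and 339 and 293 CPM in wild type. Without KO 1, Rrbp1 passed at 0.75 (edgeR adjusted p = 0.0135, of a range of 0.00507 to 0.341).

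All 3 signal peptidase genes of the list changed, beside 42.2% of all genes tested, but not in 1 direction. Sec11c (mm10, chromosome 18, 65800549 to 65817665) is a catalytic subunit, abundant in secretory tissue. Levels were 118 and 150 CPM in the wild-type pair and 62.2 and 61.2 CPM in the knockout-labelled pair. The fall was 2.17-fold (log2 change -1.12 ± 0.18 SE, edgeR adjusted p = 0.00155) and passed in all 10 alternatives. Spcs2, an accessory subunit, stood at 173 and 180 CPM against 120 and 105 CPM (-0.65 ± 0.16 SE, edgeR adjusted p = 0.0122). It lost the call without WT 2 (-0.61, edgeR adjusted p = 0.0657) and without KO 2 (-0.52, 0.0613), with a range from 0.00233 to 0.0657. Spcs1, another accessory subunit, moved the other way, from 28.3 and 35.7 CPM to 49.9 and 50.5 CPM, a rise in log2 of 0.65 ± 0.21 SE (edgeR adjusted p = 0.0345). That rise was lost without WT 1, KO 1 or KO 2 (0.50, 0.66 and 0.67, edgeR adjusted p = 0.171, 0.0833 and 0.0806), under upper quartile scaling and with DESeq2 (range 0.00872 to 0.171). The Spcs1 model overlaps Glt8d1 on the opposite strand.

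The remaining subunits of signal peptidase lie outside the 42. Sec11a, the catalytic paralog of Sec11c, stood at 96.7, 83.2, 105 and 104 CPM (log2 change 0.21, edgeR adjusted p = 0.327). Spcs3, which the enzyme needs for activity, rose 1.73-fold, from 49.5 and 49.7 CPM to 83.1 and 88.2 CPM (edgeR adjusted p = 0.0062). Per kilobase of exon, Sec11c was at 0.824 and 1.23 times the level of Sec11a in the wild-type pair, and at 0.402 and 0.40 times that level in the knockout-labelled pair. The level of Spcs2 per kilobase went from 2.23 and 1.84 times that of Spcs1 to 0.883 and 0.761 times.

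**Figure D3:**
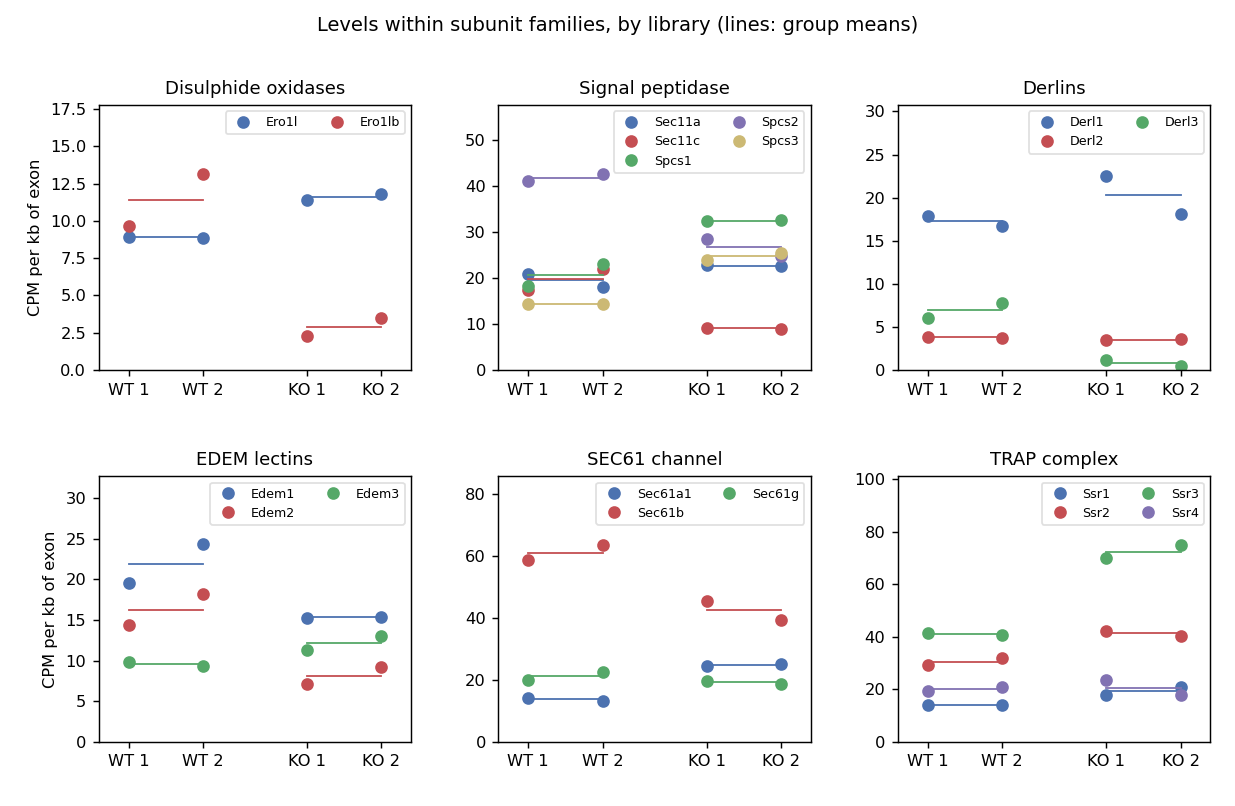
Levels of related subunits in each library, in TMM-scaled CPM per kilobase of exon, for 6 families. Dots are libraries and lines are group means. The position of a gene against another depends on the annotated exon lengths. Ero1lb lies above Ero1l in wild type and below it in the libraries labelled knockout, and so does Derl3 against Derl2, while Sec11c lies on both sides of Sec11a in wild type and below it in both libraries labelled knockout.

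In ER-associated degradation 4 of 8 genes fell and 0 rose, with 2 falls without WT 2 and 2 without KO 2. Over all genes tested, 20.2% fell and 22.0% rose, and whether the degradation genes differed from these shares was not tested. Derl3 (mm10, chromosome 10, 75893413 to 75895941), a derlin that takes part in the export of glycoproteins from the ER, had the largest change of the 42. Its levels were 12.1 and 15.5 CPM in the wild-type pair and 2.41 and 0.971 CPM in the knockout-labelled pair, from 12 and 6 counts in the latter. The fall was 8.29-fold (log2 change -3.05 ± 0.48 SE, edgeR adjusted p = 0.00133). It passed in all 10 alternatives, and the log2 change ran from -3.79 without KO 1 to -2.47 without KO 2. The other derlins did not pass. Derl1 stood at 59.6, 55.5, 75.1 and 60.1 CPM and Derl2 at 31.3, 29.9, 27.8 and 29.3 CPM (edgeR adjusted p = 0.355 and 0.726). Per kilobase of exon Derl3 was at 1.56 and 2.10 times the level of Derl2 in the wild-type pair, and at 0.351 and 0.134 times that level in the knockout-labelled pair.

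Edem1 and Edem2 belong to a family that trims mannose from misfolded glycoproteins and so marks them for removal. Edem2 stood at 49.7 and 62.9 CPM in wild type and at 24.6 and 31.7 CPM in the libraries labelled knockout, a 2.00-fold fall (-1.0 ± 0.23 SE, edgeR adjusted p = 0.00797). Without WT 2 its adjusted p was 0.0506 (edgeR, log2 change -0.81), the only call lost over a range of 9.01e-05 to 0.0506. Edem1 stood at 126 and 157 CPM against 98.2 and 99.4 CPM (-0.52 ± 0.17 SE, edgeR adjusted p = 0.0382). Leaving out WT 2, KO 1 or KO 2 ended the call (-0.35, -0.51 and -0.50, edgeR adjusted p = 0.273, 0.104 and 0.107), as did DESeq2 and no filter, and its adjusted p ranged from 0.0102 to 0.273. Edem3, the family member outside the 42, stood at 62.9, 59.1, 72.4 and 82.9 CPM (0.35, edgeR adjusted p = 0.139). Per kilobase of exon Edem2 was at 1.46 and 1.96 times the level of Edem3 in the wild-type libraries and at 0.624 and 0.705 times in the libraries labelled knockout.

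Herpud1, a membrane protein that holds the retrotranslocation complex together and is strongly induced by ER stress, stood at 125 and 104 CPM in wild type and at 72 and 64.4 CPM in the libraries labelled knockout. Its log2 change was -0.75 ± 0.18 SE (edgeR adjusted p = 0.00964). The call was lost without WT 1 (-0.59, edgeR adjusted p = 0.0721) or without KO 2 (-0.64, 0.0585), with a range from 0.000596 to 0.0721. The ubiquitin ligase of the same complex, Syvn1, and its partner Sel1l had log2 changes of -0.33 ± 0.21 and 0.11 ± 0.21 SE, and neither passed (edgeR adjusted p = 0.235 and 0.691).

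The 3 sensors of the unfolded protein response all had positive log2 changes, and 1 passed. Atf6 (mm10, chromosome 1, 170704674 to 170867771), whose released cytosolic part is a transcription factor, stood at 65.1 and 53.7 CPM in wild type and at 127 and 123 CPM in the libraries labelled knockout. It rose 2.10-fold (log2 change 1.07 ± 0.17 SE, edgeR adjusted p = 0.00159) and passed in all 10 alternatives. Ern1, which encodes IRE1, stood at 67.6, 73.3, 84.1 and 103 CPM (0.41 ± 0.18 SE, edgeR adjusted p = 0.096). Eif2ak3, which encodes PERK, stood at 78.3, 111, 117 and 234 CPM. KO 2 alone was far above the rest, and the log2 change of 0.89 ± 0.38 SE did not pass (edgeR adjusted p = 0.121). Without KO 1 it passed at 1.31 (edgeR adjusted p = 0.00769), and it also passed in 3 other settings, DESeq2 and no filter among them (range 7.71e-06 to 0.343). Message levels of the sensors do not measure their activation.

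Of the factors downstream of the sensors, Xbp1, Atf4 and Ddit3 did not pass. Xbp1, the factor downstream of IRE1, stood at 145, 199, 151 and 228 CPM (log2 change 0.14 ± 0.24 SE, edgeR adjusted p = 0.675). Atf4 and Ddit3, the factors downstream of PERK, had log2 changes of 0.40 ± 0.18 and -0.03 ± 0.21 SE (edgeR adjusted p = 0.116 and 0.924). With no filter on low counts Atf4 passed (0.48, edgeR adjusted p = 0.0289). Gene counts do not show the splicing of Xbp1 or the translation of Atf4. Of the 10 genes with an ERSE in their window, Creld2, Ero1lb and Derl3 fell, 0 rose, and Hspa5, Hsp90b1, Dnajc3, Pdia6, Calr, Canx and Syvn1 did not pass. Beside these 3 of 10, 6 of the 25 genes with a window and no ERSE fell and 5 rose, and 20.2% of all genes tested fell. Median log2 changes were -0.16 with the element and 0.19 without it. Of the 27 genes outside the 42 that hold an ERSE 7 were tested, and 1 (Acacb) fell and 0 rose. The difference between genes with and without the element was not tested. Of the 2 with ERSE-II, both counted among the 25 with no ERSE, Herpud1 fell and Dnajb11 did not pass. The core of the element bound by XBP1, TGACGTGG, and the composite element bound by ATF4, TGATGNAAT, were found in 0 of the 35 genes. Among all genes with a window the shares were 0.714% and 1.08%. Their absence says only that these letters are not in the windows searched.

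**Figure D4:**
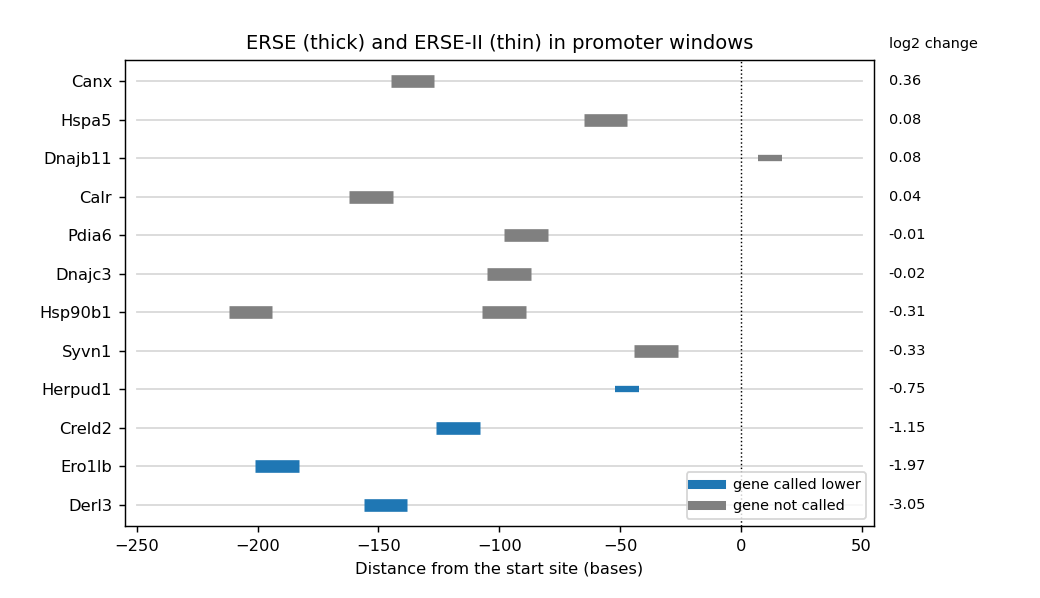
Position of ERSE (thick bars) and ERSE-II (thin bars) in the promoter windows of the 12 genes that hold one, as distance from the start site in bases, with each gene's log2 change at the right. Blue bars belong to the 4 genes that fell and grey bars to the 8 that did not pass; elements of both kinds of gene lie over the same stretch before the start site, except in Dnajb11, where it lies after it.

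Other genes of the secretory pathway, from lists drawn up around the 42, rose more often than they fell. Of 144 genes listed, 138 were tested, and 44 (31.9%) rose and 10 (7.25%) fell, with a median log2 change of 0.34, beside 22.0% and 20.2% of all genes tested. Under upper quartile scaling 21 rose and 14 fell, while 2339 of all 13990 genes tested rose and 3594 fell. In that setting the share of rises in the lists was no higher than that over all genes, and the share of falls was lower. Counts with 1 library left out were not set against all genes. Leaving out 1 library gave 20 rises without WT 2, 22 without KO 1 and 24 without WT 1, and 6 falls without WT 1. The list of vesicle coat proteins that carry cargo from the ER (COPII) and of the KDEL receptors that return escaped ER proteins had 10 rises and 0 falls among 23, with 5 rises without WT 1, 5 without KO 1, 6 without WT 2 and 4 under upper quartile scaling. Kdelr3, one of those receptors, rose 5.42-fold, from 3.02 and 4.72 CPM to 23.3 and 19.4 CPM (edgeR adjusted p = 0.000801). Of 20 other degradation genes 8 rose and 1 fell. They counted 3 rises without WT 1, 3 without WT 2, 3 without KO 1, 4 with DESeq2 and 2 under upper quartile scaling, and 0 falls without WT 1, KO 1 or KO 2 and with DESeq2. Nploc4, a cofactor of the extraction enzyme p97, rose 1.92-fold (edgeR adjusted p = 0.00272), from 65.1 and 58.0 CPM to 125 and 112 CPM.

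Folding enzymes outside the 42 also held strong changes in both directions. Of 19 prolyl isomerases and other luminal cofactors 6 rose and 1 fell, and 2 rose without WT 2. Fkbp10, a collagen chaperone, rose 3.64-fold, from 32.7 and 19.3 CPM to 111 and 77.2 CPM (edgeR adjusted p = 0.00217). Fkbp11, typical of secretory cells, fell 5.63-fold, from 25.6 and 39.8 CPM to 5.23 and 6.31 CPM (edgeR adjusted p = 0.000448). Of 15 other disulphide isomerases 3 rose and 2 fell. Erp27, an isomerase relative known from the exocrine pancreas, fell 11.2-fold, from 15.9 and 12.8 CPM to 1.21 and 1.29 CPM (edgeR adjusted p = 0.000319), and Qsox1, a secreted oxidase, rose 1.92-fold (edgeR adjusted p = 0.00273). In the oligosaccharyltransferase, which attaches sugar chains, 2 of 12 rose and 2 fell, and 1 rose whichever library was left out, with RLE or upper quartile scaling and with DESeq2. Its alternative oxidoreductase subunits moved apart: Tusc3 rose from 14.6 and 16.2 CPM to 56.5 and 53.1 CPM, and Magt1 fell from 99.8 and 80.2 CPM to 49.1 and 38.7 CPM (edgeR adjusted p = 0.000284 and 0.0041). Dad1, a core subunit, fell 2.82-fold (edgeR adjusted p = 0.000637).

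Among 21 genes of signal recognition, membrane insertion and the rest of signal peptidase, 7 rose and 0 fell, with 2 rises without WT 1, 2 without WT 2, 1 without KO 1 and 4 without KO 2. Under upper quartile scaling 2 rose and 2 fell, and with DESeq2 2 rose and 0 fell. In the glycan-dependent folding cycle 2 of 12 rose and 1 fell. There 0 rose without WT 2, 1 rose without KO 1, under upper quartile scaling and with DESeq2, and 0 fell without WT 1 or KO 1. Among 16 tested regulators of the unfolded protein response 6 rose and 3 fell, with 3 rises without KO 1 and 1 fall without WT 1. Creb3, an ER-bound factor related to ATF6, rose 3.15-fold, from 25.0 and 23.1 CPM to 77.9 and 73.7 CPM (edgeR adjusted p = 0.000263). Bhlha15, the factor MIST1 that builds the secretory apparatus of acinar and plasma cells, fell 16.4-fold, from 15.1 CPM in both wild-type libraries to 0.805 and 0.971 CPM (edgeR adjusted p = 0.000169). Bhlha15 was not in the list of acinar markers used here. Creb3 and Bhlha15 passed in all 10 alternatives, as did Kdelr3, Nploc4, Fkbp10, Fkbp11, Erp27, Qsox1, Tusc3, Magt1 and Dad1. Other leading rises of these lists were lost in at least 1 alternative: Trib3, Stt3a, Caml, Uggt2, Prkcsh, Tmx1, Ppic, Ube2j2 and Golt1b. So were the falls of Atf6b, Mogs and Tmub1, while that of Txndc11 was kept in all 10.

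The falls among the 42 can be set beside the markers of other cells, library by library. Counts of acinar markers made up 7.87% and 12.9% of the wild-type libraries, and 0.0357% and 0.744% in the knockout-labelled pair. Of 30 tested, 5 fell, 1 rose (Gatm), and the median log2 change was -5.71. Ctrc, Prss1, Amy2a5, Pla2g1b, Serpini2 and Ptf1a were at 0 counts in KO 1, Amy2a5 in KO 2 and Prss1 in WT 1. Among plasma cell and B cell markers 12 of 13 fell and Sdc1, which epithelial cells also express, rose (median -3.96), with Tnfrsf17 and Fcrl5 at 0 in KO 2. Of 11 islet markers 6 fell and 0 rose (median -1.81), with Slc30a8 at 0 in KO 1. The summed level of acinar markers was lower in KO 1 than in KO 2. Derl3 stood at 2.41 CPM in KO 1 and 0.971 CPM in KO 2, from 12 and 6 counts, too few to order the 2 libraries. Creld2 stood at 33.2 and 31.7 CPM in these libraries and Sec11c at 62.2 and 61.2 CPM. The plasma cell and B cell sum was 1262 CPM in KO 1 and 798 CPM in KO 2, of which Sdc1 made up 373 and 470 CPM. In wild type the acinar, plasma cell, islet, duct and T and NK cell sums were higher in WT 2. The fibroblast, macrophage and endothelial sums were higher in WT 1. Each order compares 1 library with 1 other, whatever the number of genes. Of the 10 genes that fell 9 were higher in WT 2, beside 17 of the other 32 ER genes (53.1%) and 52.0% of all genes that fell. The exception was Herpud1, which was higher in WT 1. What part RNA of these cells had in the falls was not tested.

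Markers that rose stood beside the rises. Of 14 macrophage markers 13 rose (median 3.64), from sums of 704 and 660 CPM in the wild-type pair to 7230 and 5097 CPM in the knockout-labelled pair. Of 14 fibroblast and stellate cell markers 10 rose and 2 fell (median 1.76), and of 16 duct markers 12 rose and 0 fell (median 1.99). T and NK cell markers fell in 12 of 12, from 1397 and 1471 CPM to 59.4 and 26.9 CPM, with Nkg7 at 0 in KO 2. Endothelial markers fell in 7 of 10, from 1761 and 1655 CPM to 1046 and 889 CPM. Against these shifts the summed level of the 42 ER genes moved from about the same value in both wild-type libraries, 7693 and 7696 CPM, to 8747 and 8751 CPM. That difference was not seen under upper quartile scaling, where the sums were 8245 and 8232 CPM in the wild-type pair and 8233 and 8110 CPM in the knockout-labelled pair. Which cells the rises of Atf6, Sec61a1 and Ssr3 came from was not tested.

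**Figure D5:**
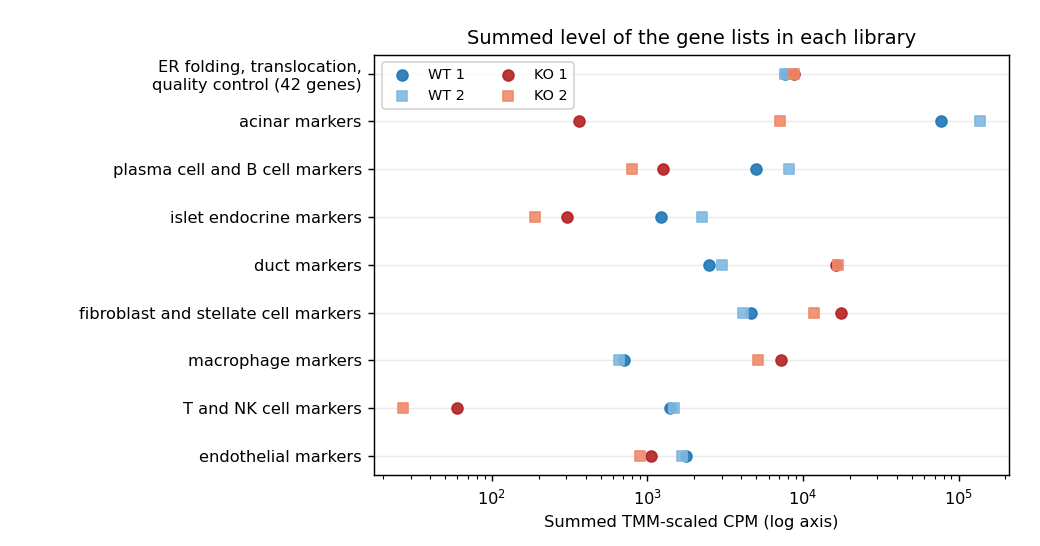
Summed TMM-scaled CPM, on a log axis, of the 42 ER genes and of 8 lists of cell type markers in each of the 4 libraries. Blue symbols are wild type and red symbols are libraries labelled knockout. The ER genes lie close together between 7693 and 8751 CPM, while the marker lists differ between the groups, acinar markers from 137203 down to 365 CPM.

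Levels per kilobase divide by all annotated exons of a gene, so that comparisons between genes depend on the annotation. On this scale the order of the most abundant ER messages differed little between the groups. In wild type Calr came first at 433 CPM per kilobase, then P4hb at 227, Hspa5 at 199, Pdia3 at 149, Hsp90b1 at 114 and Canx at 98.4. In the libraries labelled knockout the values were 445 for Calr, 357 for P4hb, 241 for Pdia3, 210 for Hspa5, 127 for Canx and 92.3 for Hsp90b1. Pdia3 thus stood above Hspa5, and Canx above Hsp90b1, where wild type had the reverse. At the other end Derl2, Pdia5, Atf6 and Derl3 were lowest in wild type, at 3.8, 5.36, 6.44 and 6.92 CPM per kilobase. Atf6 then stood at 13.5 and Derl3 at 0.85 CPM per kilobase in the libraries labelled knockout. These orders are of group means over 2 libraries and were not tested.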

How the data were processed

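The authors deposited unnormalised counts for each gene model, with a file for every library. Per the submitters' processing notes the build was mm10, and TopHat and edgeR were named without versions. Per the labels' protocols, the easy-BLUE and stranded SMARTer kits served for RNA extraction and library construction. The sources used here do not give the counting program, its annotation or its use of strand, so reads of overlapping or antisense models may not be told apart. Of the 42 genes 6 overlap another tested model (Hsp90b1, Manf, Spcs1, Syvn1, Derl2 and Eif2ak3). Rows matched GENCODE M21 coordinates for 94.8% of models. A spreadsheet had turned 26 names into dates, of which 22 were resolved by coordinates, and March6, in the list of other degradation genes, was not matched.

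Differences were tested with the quasi-likelihood test of edgeR 4.0.16 (robust, R 4.3.3) after filterByExpr and TMM. The model held genotype alone and all 4 libraries, which leaves 2 residual degrees of freedom. P-values were adjusted by Benjamini-Hochberg over 13990 genes, the threshold was 0.05, and SE comes from the fit. A test by permutation of 2 against 2 libraries cannot go below p = 0.333. The procedure was tested on simulated data. Alternatives were RLE, upper quartile and TMM without acinar counts as scalings, no filter, DESeq2 1.42.0, a replicate block and leaving out each library. Replicates of a group differed by more than sampling noise (chi-square per degree of freedom 20.06 and 19.98). Levels per kilobase use the union of exons in GENCODE M21, whether or not each exon is expressed. Models without a coordinate match took the length of the gene of the same name.

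The 42 genes and all lists were chosen with earlier results of these data known. All 42 genes were to be described, and from each other list the genes with the largest rise and fall past the threshold were taken, of which some are printed. Among genes taken in that way from the other secretory lists, those printed with values all passed in every alternative. Sec11a, Edem3, Xbp1, Atf4 and Ddit3, of the same lists, did not pass in the reported analysis. They were added after their values had been seen. Promoter sequences are RefSeq's (GRCm38.p6). A planned search of protein ends for ER retrieval signals was not run, for lack of a protein table.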

Additional observations from a re-analysis of the deposited data

How the results depend on the processing

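The 7 calls held in every alternative (Creld2, Ero1lb, Sec61a1, Ssr3, Sec11c, Derl3 and Atf6) are given above, and 18 genes passed in none. Of the 42 ER genes, 7 rose in the reported analysis, 3 under upper quartile scaling, 11 with no filter and 4 to 8 when 1 library was left out (4 without WT 2 and 4 without KO 2). Falls numbered 10, and 5 to 8 with 1 library left out (5 without WT 2 and 6 without KO 2). Their median log2 change was -0.14 under upper quartile scaling and -0.03 to 0.17 with 1 library left out. Rises over all genes numbered 3077 in the reported analysis, 2339 under upper quartile scaling and 3629 with no filter. They thus moved in the same direction as the rises of the 42. Over all genes, falls numbered 1867 to 2276 with 1 library left out. In the other secretory lists 21 genes rose under upper quartile scaling, 20 to 38 rose and 6 to 9 fell with 1 library left out. The summed CPM of the 42 in WT 1, WT 2, KO 1 and KO 2 was 7741, 7738, 8837 and 8562 with RLE, 8245, 8232, 8233 and 8110 with upper quartile scaling, and 8157, 8151, 9255 and 9263 with TMM without acinar counts. Genes whose log2 change turned sign passed in neither analysis. Under upper quartile scaling these were Hspa5 (-0.12), Dnajb11 (-0.11), Calr (-0.15), Sec62 (-0.0028), Ssr4 (-0.16), Sel1l (-0.08) and Xbp1 (-0.06). With no filter they were Dnajc3 (0.06), Pdia6 (0.06) and Ddit3 (0.05). The cause was not tested. The replicate numbers are shared by label alone: deviations of same-numbered libraries correlated at 0.048. With the replicate number as a block, 10 of the 42 rose and 10 fell, 6656 genes changed in all, and 51 rose and 12 fell in the other lists. The genes of the 42 gained with the block were Sec63, Rrbp1 and Eif2ak3. With 1 library left out, the log2 change of genes that turned sign ran from -0.0049 to 0.21 for Dnajb11, -0.09 to 0.08 for Dnajc3, -0.13 to 0.13 for Pdia6, -0.21 to 0.29 for Calr, -0.17 to 0.25 for Ssr4, -0.11 to 0.40 for Sel1l, -0.16 to 0.41 for Xbp1 and -0.16 to 0.12 for Ddit3. Depth limits Derl3 most, with 6 counts in KO 2.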
